A study of Mus musculus with 2 samples.

Results

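The genes described here are the integrin subunits and the immunoglobulin-type adhesion molecules that integrins bind, in purified collecting duct cells of adult mice with and without a deletion of the transcription factor gene Gata2. They were chosen by gene name among the probes of the array: every gene whose name begins with Itga or Itgb, apart from the integrin-like gene Itgbl1 and the integrin-binding proteins, and Icam1, Icam2, Icam4, Icam5, Vcam1 and Madcam1. This gave 31 genes with 61 probes, of 30198 gene names and 41174 probes in all. Of the 31 genes, 26 were well above background on at least 1 array, and 5 were on neither.

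The series holds 2 one-colour arrays, 1 for each genotype. The Gata2 CKO array held RNA of mice of genotype Gata2flox/-::Pax8-rtTA::Tet-Cre, in which 1 Gata2 allele was floxed and the other null, and Cre was driven through Pax8-rtTA, a transactivator of renal tubules that doxycycline switches on. The WT array held RNA of wild-type mice, whose label names no transgene. All mice were 8 weeks old and of both sexes, and deletion had been induced by feeding doxycycline solution for 4 weeks, starting when the mice were aged 4 weeks. The null allele also leaves cells outside the tubules of CKO mice with 1 allele fewer, and the label does not say whether WT mice were given doxycycline. The cells had been purified on magnetic beads by means of DBA, a plant lectin to which the epithelium of collecting ducts binds. The design names 3 mice per genotype and the arrays are described as mixtures, so the arrays may hold pooled mice. Since each genotype has 1 array, the differences have no check by replicates and were not tested.

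Integrins are receptors made of 1 alpha and 1 beta subunit that tie cells to the matrix or to other cells. In tubule epithelium the laminin-binding integrins hold cells to the basement membrane. Leukocytes use, among others, integrins with the beta subunits Itgb2 and Itgb7 and the pair of Itga4 with Itgb1. Leukocyte integrins bind counter-receptors of the immunoglobulin superfamily, above all ICAM-1 and VCAM-1, which inflammatory signals induce on endothelium and also on injured tubule cells.

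The following stretches, the first 30 of the 60 bases of a probe, identify the probes on which the differences described below rest. Their coordinates are mm9 as the files give them, and the position is counted along the transcript as the files number it.
Vcam1, position 3060, chr3:115813216-115813275, minus strand: tatatttttataggcaaatggtaaagaggt
Icam1, position 2459, chr9:20833186-20833245, plus strand: ctgtgggagggtaagcaaccctcccagcac
Itgam, position 4151, chr7:135261475-135261534, plus strand: gaatcgattaacccgtcaaagtacaaaaac
Itga11, position 4817, chr9:62631667-62631726, plus strand: gtttcatctgaacaatgtcatctgttcccc
Itga1, position 683, chr13:115821387-115825525, minus strand: ttgggagagagagatcaatgccttgtgtga
Itga1, position 5084, chr13:115749127-115749186, minus strand: ttgtaccaagaaatcactgctttcgaacat
The first Itga1 probe covers far more genome than its own length, so it crosses a splice junction, and 11 of the 61 probes exceed their length on the genome by more than 1 base. Whether the others lie in coding or untranslated exon sequence was not analysed here.

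The unit of the signals is the scanner software's processed spot intensity. Its 75th percentile was 250.1 on the CKO array and 314 on the WT array, and differences are CKO minus WT of log2 signal relative to the array's own 75th percentile. Errors after the ± sign are the software's spot errors over both arrays and cover the spots only. The median difference of the 18974 genes measured was 0.04. The deleted gene itself gave signals of 2424 on the CKO array and 3943 on the WT array at 1 probe and of 2194 and 3432 at the other. Its differences were −0.37 ± 0.20 and −0.32 ± 0.20. Which exons were removed is not in the labels, so these probes may lie outside the deleted part. Defining markers of the collecting duct were well above background on both arrays for 10 of 10 principal cell genes and 8 of 8 intercalated cell genes. These markers moved apart. Of the intercalated cell genes 8 of 8 were higher on the CKO array, against 57% of all genes, with a median of 0.73. Of the principal cell genes 9 of 10 were lower, against 42.1% of all genes, with a median of −0.36. With spike-in scaling, computed for these lists after seeing the data, the intercalated cell genes had a median of 0.18, with 6 higher and 2 lower, and the principal cell genes one of −0.90, with 1 higher and 9 lower.

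Among the members 4 had a signal lower by 2-fold or more on the CKO array, and 0 were at least 2-fold higher. Of all genes measured, 2.84% were at least 2-fold lower (538) and 1.49% at least 2-fold higher (282). With spike-in scaling these were 1642 and 58 genes, and 9 members were at least 2-fold lower. The 4 genes were Vcam1, Icam1, Itgam and Itga11. Differences of any size were negative for 15 of the 26 measured members, against 42.1% of all genes, and positive for 11, against 57% of all genes. The median member stood at −0.13. These signs depend on the scaling: with spike-in scaling only Itga1, Itga2b and Itgb4 stayed above 0, and the median of all genes was −0.50.

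The adhesion molecules of the immunoglobulin superfamily spanned the widest range on the lower side. Vcam1 encodes VCAM-1, a counter-receptor of integrins with the Itga4 subunit. Its signal was 222 on the CKO array and 1099 on the WT array, a difference of −1.98 ± 0.20, or 3.94-fold lower. The CKO array was the low one by a second probe too, at position 842. Its signal was 11.7 on the CKO array, where it was not well above background, and 56.3 on the WT array, or −1.94 ± 0.38. Another probe, placed on another transcript, was not well above background on either array. Of the 18974 genes, 143, Vcam1 included, had a difference as low as that of Vcam1 or lower.

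Icam1 encodes ICAM-1, which the beta-2 integrins of leukocytes bind. Its main probe was printed 10 times on each array, with signals from 180 to 211 (median 199) on the CKO array and from 640 to 742 (median 722) on the WT array. The 10 spots of the CKO array all lay below the 10 of the WT array. The mean difference was −1.53, with a standard deviation of 0.11 over the 10 spots, or 2.90-fold lower, and the spots cover the printing and not the mice. A second probe had 16.4 on the CKO array and 54.5 on the WT array, or −1.40 ± 0.33.

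Icam2 encodes ICAM-2, which endothelial cells carry without induction. It had a signal of 75.02 on the CKO array and 188 on the WT array, a difference of −0.99 ± 0.21, just short of 2-fold, and −0.62 after normexp. Icam4 and Icam5, known from red blood cells and from neurons, gave signals near background. Icam4 was at 13.8 on the CKO array and 13.2 on the WT array, where it was not well above background, or 0.39 ± 0.47. Icam5 was at 16.7 on the CKO array and 15.7 on the WT array, or 0.42 ± 0.41. Madcam1 is the mucosal counter-receptor of integrins with Itga4 and Itgb7. It had a signal of 11.6 on the CKO array, not well above background there, and 17.9 on the WT array, or −0.29 ± 0.53. Over the 6 genes the median difference was −0.64, and it was −1.26 over the 4 measured on both arrays and −0.31 after normexp background correction.

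**Figure D1:**
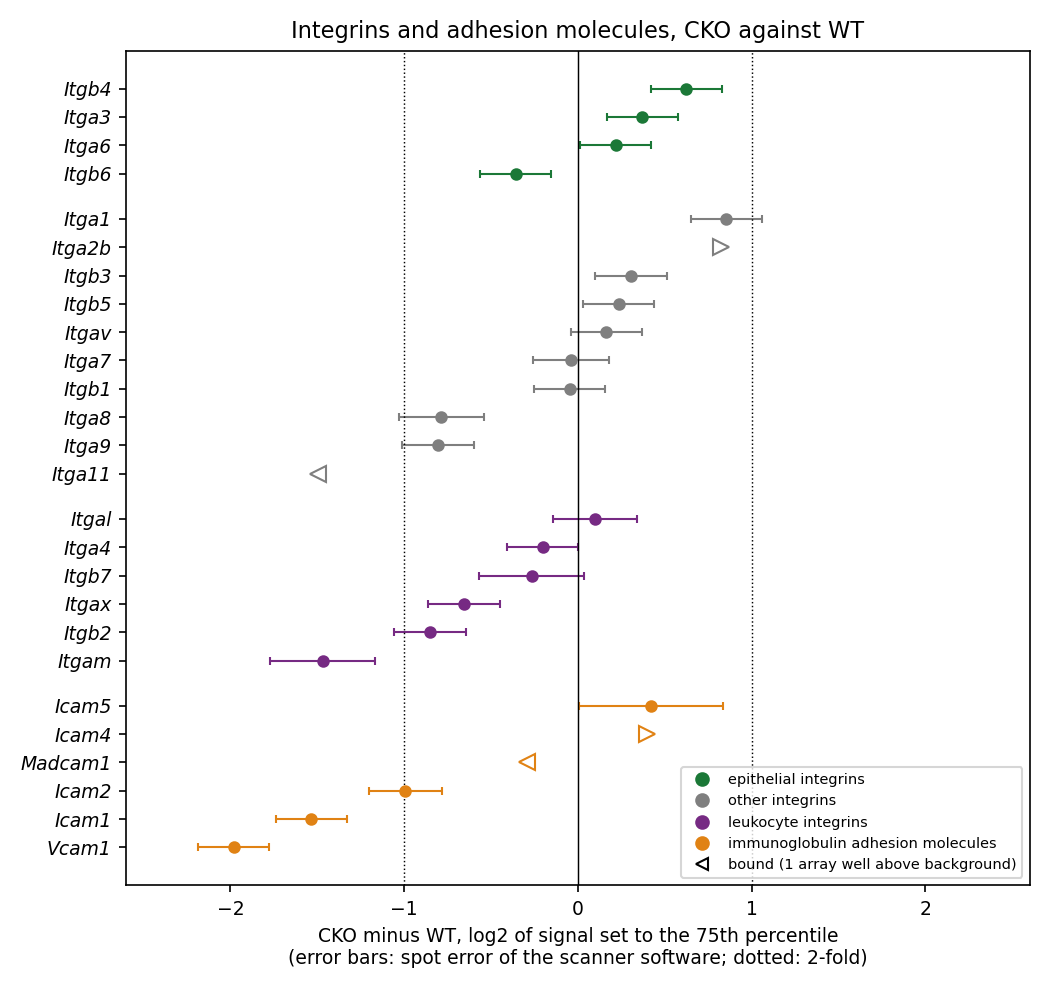
Differences of the 26 measured members, CKO minus WT as log2 signal relative to the 75th percentile of the array (x axis), by gene and group (y axis). Points carry the spot error as bars, and dotted lines mark 2-fold. Open triangles are genes well above background on 1 array only, drawn as bounds except for Icam4 and Madcam1, whose triangles are measured differences. Vcam1 at −1.98, Icam1 at −1.53 and Itgam at −1.47 lie beyond 2-fold on the lower side, with the bound of Itga11 at −1.50, and the epithelial Itgb4, Itga3 and Itga6 lie above 0, of which Itga3 and Itga6 turn negative with spike-in scaling.

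Icam1, Icam4 and Icam5 lie next to each other on chromosome 9. The probes of Icam1 and Icam4 are 1.28 kb apart, and those of Icam4 and Icam5 8.84 kb. Of the 3 neighbours, Icam1 was at −1.53, while Icam4 and Icam5 were at 0.39 ± 0.47 and 0.42 ± 0.41.

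Integrins of leukocytes were represented by 8 genes, of which 6 were measured. Itgam encodes CD11b, the alpha subunit of the macrophage and neutrophil receptor Mac-1. It had a signal of 16.3 on the CKO array and 56.6 on the WT array, a difference of −1.47 ± 0.30, or 2.77-fold lower. Its second probe had 4.61 on the CKO array, not well above background, and 24.3 on the WT array, and was at least 1.67-fold lower. The CKO array was low by both probes, but the signals were dim, and after normexp, whose offset shrinks differences of dim probes, Itgam stood at −0.41.

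Itgb2 encodes CD18, the beta subunit with which Itgam, Itgal and Itgax pair. Its signal was 99.8 on the CKO array and 226 on the WT array, or −0.85 ± 0.21, and −0.55 after normexp. Itgax, the CD11c of dendritic cells and some macrophages, had 121 on the CKO array and 240 on the WT array, or −0.66 ± 0.21, while its other probe, on another transcript and close to background, gave −0.04 ± 0.38. Itgax lies on chromosome 7, with its probe 32.5 kb from that of Itgam. Itgal, the CD11a of lymphocytes, had 41.3 on the CKO array and 48.5 on the WT array, or 0.10 ± 0.24. Its other probe had 22.3 on the CKO array and 49.5 on the WT array, or −0.82 ± 0.26, so the arrays leave its direction unsettled.

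Itga4 pairs with Itgb1 or Itgb7 and is a receptor subunit for VCAM-1. Its signal was 170 on the CKO array and 247 on the WT array, and its difference of −0.20 ± 0.21 was no larger than the spot error. Of its other 3 probes, 1 passed the background limit on the WT array alone and was at least 1.17-fold lower, and the rest passed on neither array. Itgb7 had 21.6 on the CKO array and 32.6 on the WT array, or −0.27 ± 0.30, and 0.07 after normexp. Itgae, the integrin subunit of lymphocytes within epithelia, and Itgb2l were not well above background on either array. Itga4, a VCAM-1 receptor subunit, was thus within its spot error of 0 where Vcam1 was 3.94-fold lower. The other members were not sorted by binding of VCAM-1, so this pair does not describe all its receptors. Of the subunits of beta-2 integrins, Itgam and Itgb2 were lower and Itgal was not settled. Itgax was at −0.66 ± 0.21 at the probe used and at −0.04 ± 0.38 at its other probe.

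Epithelial integrins were represented by 5 genes, of which Itga2, a collagen receptor subunit, was not well above background at either of its probes. Itgb4 joins Itga6 in the laminin receptor of hemidesmosomes. Its signal was 1649 on the CKO array and 1346 on the WT array, or 0.62 ± 0.20, and a second probe, overlapping the first, gave 0.52 ± 0.20. Itga6 had 701 on the CKO array and 757 on the WT array, which after scaling was 0.22 ± 0.20. Itga3, whose product pairs with that of Itgb1 as the laminin receptor of tubule and glomerular epithelium, had 995 on the CKO array and 968 on the WT array, or 0.37 ± 0.20, with 0.27 and 0.25 at its other probes. Itgb6 was the member of this group on the lower side. It pairs with Itgav in a receptor of epithelia that releases active TGF-beta from its latent complex. Its signal was 488 on the CKO array and 786 on the WT array, or −0.36 ± 0.20, and its other probes gave −0.49 ± 0.20 and −0.03 ± 0.21.

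The epithelial and the leukocyte integrins were then compared. The median difference was 0.29 over the 4 measured epithelial members, with 3 higher, 1 lower and 0 at 2-fold, and −0.46 over the 6 measured leukocyte members, with 1 higher, 5 lower and 1 at least 2-fold lower. All genes had a median of 0.04, with 57% higher, 42.1% lower and 2.84% at least 2-fold lower. The groups overlapped, since Itgb6 at −0.36 lay below Itgal, Itga4 and Itgb7. The leukocyte minus epithelial gap between the medians was −0.75 on the log2 scale, which a constant scaling of either array leaves as it is. With the spike-in control transcripts set equal, the epithelial median turned to −0.25 and the leukocyte one to −1.01, against −0.50 for all genes. The gap shrank to −0.47 with no filter on dim probes, where the leukocyte median was −0.23, and to −0.52 with normexp, where it was −0.28. With the probe farthest along each transcript, a choice made after seeing the data, the leukocyte median was −0.74 and the epithelial one 0.29.

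**Figure D2:**
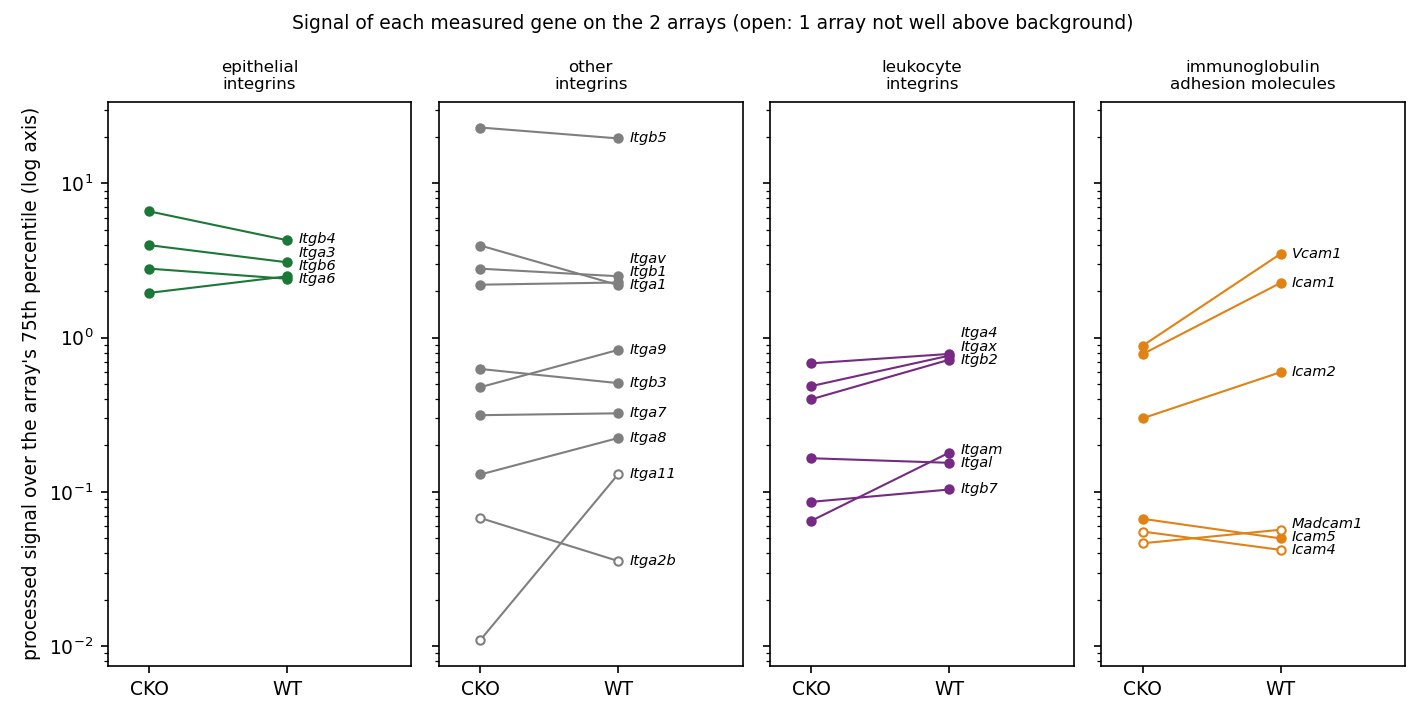
Processed signal of each measured member divided by the 75th percentile of its array (y axis, log scale) on the CKO and the WT array (x axis), with 1 line per gene and 1 panel per group; open points mark genes well above background on 1 array only. The lines of Vcam1, Icam1 and Itgam are lower on the CKO array and that of Itgb4 is higher there, while heights of different probes cannot be compared as levels.

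Markers of leukocytes and macrophages moved with the leukocyte integrins. Of 14 such markers all were measured, and 13 of them were lower on the CKO array and 0 higher, against 42.1% and 57% of all genes. The median of the markers was −0.69. Their signals, each divided by the 75th percentile of its array, summed to 89.6 on the CKO array and 162.5 on the WT array. Most of both sums came from Lyz2 and Cd74, the brightest of the markers, so the sums do not describe the list as a whole. The lysozyme gene Lyz2 was at −1.26 ± 0.20, with signals of 6177 on the CKO array and 18525 on the WT array. Cd74 was at −0.65 ± 0.20, with 8491 on the CKO array and 16747 on the WT array. Ptprc, the CD45 that all leukocytes carry, was at −0.35 ± 0.20. Of 12 markers of T and B lymphocytes 8 were measured, with a median of 0.00 and members on both sides, and Cd3d, Cd8b1, Ms4a1 and Nkg7 were well above background on neither array. Among the measured ones Cd8a was at least 10.1-fold lower at 1 probe, with signals of 10.6 on the CKO array, not well above background, and 147 on the WT array. Another Cd8a probe, well above background on the WT array alone, gave only −0.23, and a further one passed on neither array. The B cell receptor gene Cd79b was at 0.93 ± 0.20. The neutrophil and platelet list had 6 measured members with a median of −0.17, 1 of which is Itga2b itself. Its genes S100a8, Elane, Gp9 and Ppbp were well above background on neither array. Endothelial markers had a median of −0.33 over 10, and those of fibroblasts, pericytes and smooth muscle one of −0.69 over 10. Proximal tubule markers had a median of −0.24 over 8, with 6 lower and 2 higher. Markers of podocytes and mesangium, Itga8 among them, had the lowest median of the marker lists at −0.92, with 7 of 7 lower. Of them 3 were at least 2-fold lower, against 2.84% of all genes. These were Wt1 at −1.70, Nphs1 at −1.23 and Podxl at −1.21, whose other probe gave 0.22. The intercalated and principal cell markers, at medians of 0.73 and −0.36, stand beside an epithelial integrin median of 0.29, or −0.25 with spike-in scaling. The part of these cells in the differences of the integrins was not tested, and fewer such cells and less RNA per cell cannot be told apart in arrays of this kind.

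The remaining integrins fell on both sides of 0, with a median of 0.06 over 10 measured of 12 genes. The widely expressed beta subunit Itgb1, with which most matrix receptors are built, was printed 10 times. Its signals ran from 520 to 576 (median 546) on the CKO array and from 688 to 759 (median 714) on the WT array, which after scaling gave a mean difference of −0.05 with a standard deviation of 0.05 over spots. The spots thus bracketed 0, from −0.13 to 0.02. Its second measured probe gave 0.21 ± 0.21.

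Of the collagen receptor subunits that pair with Itgb1, Itga11, known from fibroblasts, had a signal of 2.74 on the CKO array, where the negative controls had a median of 2.53, and of 41.0 on the WT array. It was not well above background on the CKO array and at least 2.82-fold lower, on a single probe, and −0.27 after normexp. Itga10, known from cartilage, was well above background on neither array. Itga1 had 990 on the CKO array and 689 on the WT array at the probe used, or 0.85 ± 0.20, but its other probes gave 0.04 ± 0.20, −0.35 ± 0.20 and −0.47 ± 0.21, so the direction of Itga1 rests on the probe.

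Among the subunits that read the Arg-Gly-Asp motif of matrix proteins, Itgb5, a vitronectin receptor subunit with Itgav, had 5764 on the CKO array and 6155 on the WT array, or 0.23 ± 0.20. Itgav itself had 701 on the CKO array and 786 on the WT array, or 0.16 ± 0.20, and its 5 probes lay between 0.09 and 0.35. Itgb3 had 157 on the CKO array and 159 on the WT array, or 0.31 ± 0.21, with −0.66 ± 0.37 at its other probe. With spike-in scaling Itgb5, Itgav and Itgb3 turned to −0.31, −0.38 and −0.24. Itga2b, the platelet partner of Itgb3, was at 16.9 on the CKO array and 11.2 on the WT array, where it was not well above background, and was at least 1.77-fold higher, a bound of 0.82 on the log2 scale that became 0.28 with normexp and 0.28 with spike-in scaling.

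Itga8, the nephronectin receptor subunit of mesangial and other mesenchymal cells, had 32.4 on the CKO array and 70.3 on the WT array, or −0.79 ± 0.24, with −0.56 ± 0.25 at a second probe and −0.13 after normexp. Itga9, which binds tenascin-C, had 119 on the CKO array and 262 on the WT array, or −0.80 ± 0.21, and its other probe gave −1.06 ± 0.21, past 2-fold. Itga7, known as the laminin receptor subunit of muscle, had 78.6 on the CKO array and 102 on the WT array, or −0.04 ± 0.22. Itga5, the fibronectin receptor subunit, was well above background on neither array, with 3.47 on the CKO array and 11.7 on the WT array.

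Probes of 1 member disagreed by more than the spot error in several cases. Over the 12 members with several probes that passed the background limit on each array, the root mean square of the standard deviation between probes was 0.37, against 0.27 over 5309 genes of all kinds. The largest ranges were those of Itga1 at 1.32, Itgb3 at 0.96 and Itgal at 0.92. Probes of Icam1 lay within 0.13 of each other, those of Itga3 within 0.12 and those of Itgb4 within 0.10.

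The differences also moved with the place of the probe in the transcript, which was noticed after the values had been seen. For Itga1, whose first and last probes are shown above, the difference was 0.85 at position 683, −0.35 at position 3710 and −0.47 at position 5084 of the same transcript. For Itgb6 it was −0.03 at position 838, −0.36 at position 2445 and −0.49 at position 4541. Of 8 members with several such probes of 1 transcript, 5 had a lower difference at the last probe than at the first, and 3 (Itgb4, Itga3 and Itga9) a higher one. Over all 4616 transcripts with such probes, 61.2% had the lower difference at the last probe, with a median step of −0.06. The step grew with distance: it was 0.01 over 1078 transcripts whose probes lay under 500 bases apart, −0.01 over 892 at 500 to under 1000 bases, −0.11 over 1213 at 1000 to under 2000 bases and −0.18 over 1433 at 2000 bases or more. In the last group 74.7% had the lower difference at the last probe. Its part in the differences of single members was not tested.

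**Figure D3:**
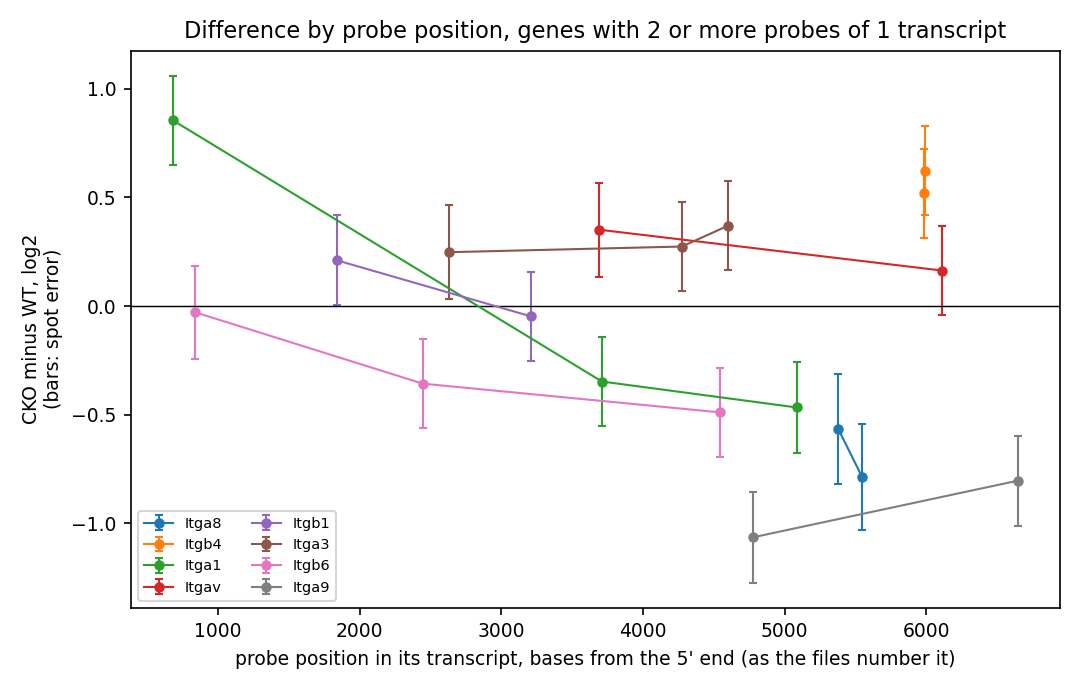
Difference of each probe, CKO minus WT on the log2 scale with the spot error as bars (y axis), against the position of the probe in bases from the 5′ end of the transcript (x axis), for the 8 members with several probes of 1 transcript well above background on both arrays. Lines join the probes of a gene, and those of Itga1 run downward to −0.47 and those of Itgb6 to −0.49 at the last probe.

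Genes that act with integrins were counted in 4 lists. Adaptors and activators of integrins inside the cell, such as talin, kindlins and focal adhesion kinase, showed 0 of 32 measured members at 2-fold in either direction. Of the 32, 23 were lower and 9 higher, against 42.1% and 57% of all genes, with a median of −0.09. The widest differences were those of the talin 2 gene Tln2 at 0.57 ± 0.20 and the kindlin 1 gene Fermt1 at 0.53 ± 0.20, whose other probe gave 1.07. Fermt3, the kindlin of blood cells, was at −0.27.

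Matrix ligands of integrins had a median of −0.59 over 25 measured of 30 genes. Of the 25, 7 were at least 2-fold lower and 1 at least 2-fold higher, against 2.84% and 1.49% of all genes. The tenascin-C gene Tnc, ligand of the Itga9 receptor, had 10.4 on the CKO array, not well above background, and 112 on the WT array, and was at least 7.73-fold lower. The fibrinogen gene Fgb was at −2.67, the basement membrane nidogen Nid1 at −2.13, Vwf at −1.78 and the matricellular gene Ccn1 at −1.19. The 1 ligand at least 2-fold higher was Lamb3, a chain of the laminin that the Itga6 and Itgb4 receptor binds, at 1.25 ± 0.23, with signals of 80.0 on the CKO array and 42.1 on the WT array. Lama3, another laminin chain, was at 0.11 ± 0.37. Npnt, the nephronectin that Itga8 binds, was at −0.70 ± 0.20 with signals of 2758 on the CKO array and 5613 on the WT array.

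The list around TGF-beta, which integrins with Itgav release from its latent complex, held ligands, latent TGF-beta binding proteins and receptors. Its 10 measured genes had a median of −0.41, with 9 lower and 1 higher. Of all genes measured, 2.84% were at least 2-fold lower, and of this list 3 were, while 0 were at least 2-fold higher. The 3 lower ones were the latent TGF-beta binding protein gene Ltbp2 at −2.75 ± 0.31, Tgfb3 at −1.46 and Tgfb2 at −1.17. The ligand gene Tgfb1 was at −0.26 ± 0.23, and the receptor gene Tgfbr3 was at 0.21 ± 0.30. Other adhesion genes of leukocytes and epithelia had a median of −0.50 over 16 measured of 19 on the array, and 3 were at least 2-fold lower: Jam3 at −1.55, Glycam1 at least 2.49-fold, and the hyaluronan receptor Cd44 at −1.20 ± 0.22 with −1.21 at its other probe. The selectin gene Sele was well above background on neither array. The epithelial adhesion genes Cdh1 and Epcam were at −0.05 and 0.27.

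**Figure D4:**
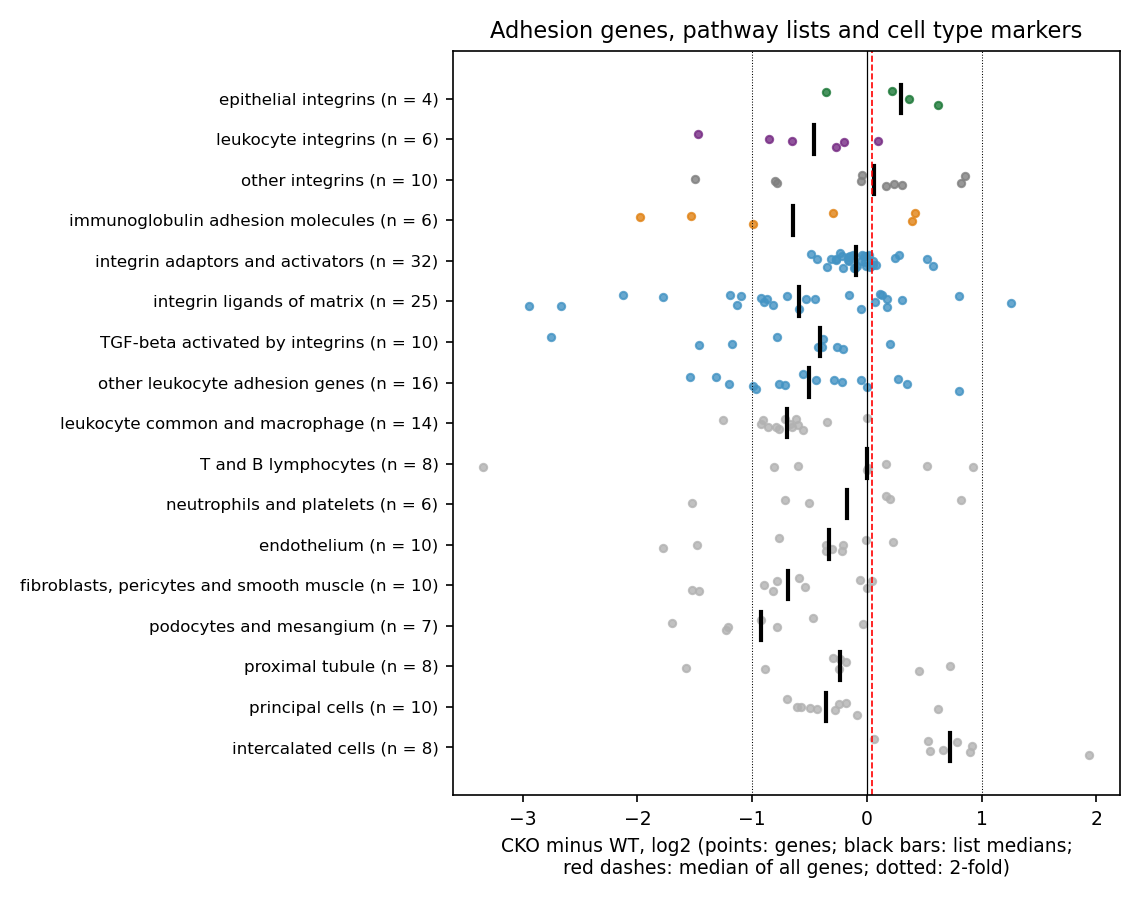
Difference of each gene, CKO minus WT on the log2 scale (x axis), for the members, the lists of genes that act with integrins and the cell type markers (y axis, with the number measured). Black bars are list medians and the red dashes the median of all genes at 0.04; the leukocyte and macrophage markers have a median of −0.69 and the epithelial integrins one of 0.29, which turns to −0.25 with spike-in scaling.

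Promoters of the members were searched in RefSeq sequence of GRCm38.p6, from 250 bases before to 30 bases after a gene's start. Of the 31 genes, 22 had an entry, with 24 promoters, and Vcam1 had none. The GATA letters AGATAA or AGATAG or else TGATAA or TGATAG, on both strands, were found in 3 of the 24 promoters, or 12.5%, against 28.7% of 32851 promoters of all genes. The promoters with a match were those of Icam4, Itgax and Itgb7. The promoter of Icam1 held none, which says only that these letters are not in this window.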

How the data were processed

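Per the labels' protocols, the arrays were hybridised with Cy3-labelled RNA amplified from 50 ng. Per the file headers, the deposited spot intensity is linear and was extracted by Agilent Feature Extraction 10.7.3.1, with background subtraction and detrending, on 1 slide and in 1 scan, with probes placed on mm9. Outlier flags removed 73 spots of the CKO array and 66 of the WT array, none of a member, and 0 were saturated. The lowest signal well above background was 11.6 on the CKO array and 12.0 on the WT array.

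From these the log2 signal minus the 75th percentile of each array was computed, and spots of a probe were averaged. Each gene is represented by the brightest of its probes that passed the background limit on either array. For probes that passed on a single array a bound replaces the difference, with the dim side raised to the array's lowest passing signal. Where the dim side's own signal was higher than that, the value is the measured difference and no bound. A value of the wrong sign was set to 0. Symbols were updated through RefSeq accessions where these matched, except for the members.

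With 1 array per genotype nothing was tested. Calls are differences of at least 2-fold. Named are all members, Gata2, and of some of the other lists up to 5 genes with large differences. Several marker lists are given by their medians without their largest differences. Further genes are named for their roles. Members and lists were chosen with earlier results of these data known. Alternatives were cyclic loess, quantile normalization, normexp (offset 50), other scalings, other filters on dim probes, the mean of a gene's probes and keeping flagged spots. No header or label used here names a normalization between the arrays by the authors. The steps were tested on simulated data. The number of arrays limits the precision. Tools were R 4.3.3, limma 3.58.1, Python 3.11.15, numpy 2.4.6, pandas 2.3.3 and matplotlib 3.10.9.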

Additional observations from a re-analysis of the deposited data

How the results depend on the processing

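No paired analysis was possible because each genotype has 1 array and no test was made. Over 10 alternatives, Vcam1 and Icam1 were at least 2-fold lower in all, Itgam in 9 and Itga11 in 8 of the 9 in which it could be computed, the exception for both being normexp. These are not independent checks. Keeping flagged spots could not change a member, since no member spot was flagged. The filters on dim probes and the farthest probe left Vcam1, Icam1 and Itgam at their main values, since the same probe was used. The count of members at least 2-fold lower was 4, but 2 with normexp and 9 with spike-in scaling, which moved differences measured on both arrays by −0.55, and the count at least 2-fold higher was 0 in all. The epithelial median was 0.29, but −0.25 with spike-in scaling. The leukocyte median was −0.46, but −1.01 with spike-in scaling, −0.23 with no filter on dim probes and −0.74 with the probe farthest along the transcript, an alternative added after seeing the data. The leukocyte minus epithelial gap was −0.75, but −0.52 with normexp, −0.47 with no filter and −1.03 with the farthest probe. The median of the immunoglobulin adhesion molecules was −0.64, but −0.31 with normexp, −1.26 on probes of both arrays and −1.19 with spike-in scaling. Apart from the change in the probes counted under the filters, the cause of these shifts was not tested. Signal over background limits Itgam, Itga8, Itga11, Itga2b, Icam4, Icam5, Itgb7 and Madcam1. Over all genes, 282 were at least 2-fold higher and 538 lower, but 65 and 204 with normexp, 58 and 1642 with spike-in scaling and 1214 and 1245 with no filter on dim probes, and 206 and 642 with cyclic loess.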
